A study of Mus musculus with 2 samples.

Results

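The genes of the proteasome were followed in single cells of the mouse hippocampus, as the 48 gene symbols made of Psm, a letter from a to g and a number, without Psmb8 and Psmb9, out of 24130 symbols in the deposited matrices. The rule used names and no measured value, though the genes were chosen with earlier results of these data known. Of the 48, the alpha ring of the core particle gave 8 (Psma1 to Psma8), the beta ring 7 standard subunits (Psmb1 to Psmb7), of which Psmb5, Psmb6 and Psmb7 carry the proteolytic sites, and 2 were catalytic subunits of particular tissues or states (Psmb10 and Psmb11). The regulatory particle gave 6 ATPases (Psmc1 to Psmc6) and 11 other subunits, and the rest were 3 chaperones of its assembly (Psmd5, Psmd9, Psmd10), 4 chaperones of core assembly (Psmg1 to Psmg4), 5 activator genes, the regulator Psmf1 and Psmc3ip. Psmc3ip matched by its symbol only, since it encodes a protein of meiotic recombination, and Psme2b is a close copy of Psme2.

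The hippocampi came from male C57BL/6 mice with an age label of 6 months, whose sample titles call the brain aged, and were dissociated with papain for 10x libraries. There was 1 library per group. The control library carries the treatment label Saline, and the EMF_AuNPs library that of an electromagnetic field (EMF) with gold nanoparticles (AuNPs), which the protocol places in the hippocampus by injection, with 3 weeks of exposure between Helmholtz coils. The labels do not settle whether the control mice were exposed too, and the number of animals pooled into a library is not given in the sources used here. Since each group is a single library, differences between groups lack a replicate check and were not tested, and the treatment, the library and the animals cannot be told apart. Intervals are 95% intervals and cover counting error only, and a ratio between libraries of at least 1.5-fold is called higher or lower.

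The proteasome degrades proteins tagged with ubiquitin. The tagged protein is bound and unfolded by the ATPase ring and the other subunits of the regulatory particle and is then cut inside the barrel of alpha and beta rings. In immune and interferon-exposed cells the catalytic subunits encoded by Psmb5, Psmb6 and Psmb7 are replaced by those encoded by Psmb8, Psmb9 and Psmb10, and the activator encoded by Psme1 and Psme2 caps the barrel, which alters the peptides offered to the immune system. When proteasome activity is short, the transcription factor encoded by Nfe2l1 raises subunit genes together.

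The control library held 21583 barcodes with 51091452 counted molecules (unique molecular identifiers, UMIs), and the EMF_AuNPs library 7003 barcodes with 19544686 UMIs, with medians of 1904 and 2310 UMIs per barcode. The proteasome genes took 0.446% and 0.494% of all UMIs, and each of the 48 had at least 1 UMI in both libraries. Cells were named by counting their markers of 18 classes, and 15826 control and 4598 EMF_AuNPs cells were named. A further 22.5% and 32.0% of cells that passed the depth filter showed markers of several classes and were left out. The 4 large classes, those with 300 or more cells per library, were oligodendrocyte-like (5784 and 1016), astrocyte-like (3273 and 1408), endothelial-like (2757 and 896) and microglia-like cells (2575 and 488). Choroid plexus-like (384 and 128), pericyte-like (276 and 74), smooth muscle-like (174 and 67) and red blood cell-like cells (249 and 447) were compared too. Typical cells of the 4 large classes showed 8 to 10 of their own markers and 1 to 3 of the next class. Across the libraries 38 barcodes were shared.

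As a view of the regulatory DNA, the bases upstream of 4 of these genes are shown. Psmb5 and Psmb6 belong to the standard catalytic core, and Psmb10 and Psme2 to the interferon-inducible form, whose levels differed between cell classes. The sequences are RefSeq's on GRCm38.p6, end just before the first base that RefSeq or GENCODE counts to the gene, and run 5′ to 3′ on the gene's strand. Psmb5 lies on the minus strand at chr14:54618023-54618245, Psmb6 on the plus strand at chr11:70525107-70525356, Psmb10 on the minus strand at chr8:105938445-105938642 and Psme2 on the minus strand at chr14:55591114-55591351. Capitals mark the letters TGACNNNGC, the core of the site to which the factors encoded by Nfe2l1 and Nfe2l2 bind with small MAF proteins.

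Psmb5: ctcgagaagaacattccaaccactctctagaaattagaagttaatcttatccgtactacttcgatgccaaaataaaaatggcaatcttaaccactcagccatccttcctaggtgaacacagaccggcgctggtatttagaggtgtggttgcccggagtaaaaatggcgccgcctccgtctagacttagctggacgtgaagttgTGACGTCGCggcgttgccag

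Psmb6: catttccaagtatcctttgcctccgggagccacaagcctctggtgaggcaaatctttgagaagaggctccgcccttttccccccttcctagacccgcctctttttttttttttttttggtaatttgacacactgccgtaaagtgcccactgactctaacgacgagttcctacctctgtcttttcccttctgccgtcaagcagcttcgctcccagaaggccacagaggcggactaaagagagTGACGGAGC

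Psmb10: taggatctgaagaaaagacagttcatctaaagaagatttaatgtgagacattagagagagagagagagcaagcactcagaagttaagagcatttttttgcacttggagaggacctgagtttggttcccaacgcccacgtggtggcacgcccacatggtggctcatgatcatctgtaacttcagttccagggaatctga

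Psme2: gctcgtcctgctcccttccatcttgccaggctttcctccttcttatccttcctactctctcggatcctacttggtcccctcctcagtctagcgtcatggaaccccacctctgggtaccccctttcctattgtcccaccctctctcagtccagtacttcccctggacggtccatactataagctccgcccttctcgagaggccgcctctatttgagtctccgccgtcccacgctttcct

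The search covered the 250 bases before each of 43 RefSeq starts of 40 of the 48 genes, on both strands, for 3 motifs. TGACNNNGC was present at 5 starts (11.6%), those of Psmb5, Psmb6, Psmc6, Psmd9 and Psmd12, against 10.2% of the 32851 promoters of the table. GAAANNGAA, the core of interferon-stimulated elements, was present at 3 (6.98%), those of Psmb3, Psmd4 and Psmd9, against 7.13%, and neither Psmb10 nor Psme2 held it in this window. CCAAT, the letters of the CCAAT box, was present at 14 (32.6%) against 33.8%. The shares of the proteasome genes were thus close to those of all promoters for each motif, and a match is a run of letters and not a bound site.

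The summed level of the 48 genes differed between cell classes, with endothelial-like and pericyte-like cells at the top and choroid plexus-like cells at the bottom in both libraries. Levels are UMIs scaled to a class total of 1000000 UMIs (CPM). Endothelial-like cells, which line vessels, had a control level of 5531 CPM (5469 to 5594) and an EMF_AuNPs level of 6172 CPM (6075 to 6270). Pericyte-like cells, which wrap capillaries, had 5333 (5084 to 5591) and 6142 CPM (5712 to 6595), so the intervals of these neighbours overlapped in both libraries. Oligodendrocyte-like cells, which make myelin, followed with 4797 (4761 to 4834) and 5525 CPM (5446 to 5606). Smooth muscle-like cells had 4340 (4123 to 4565) and 5296 CPM (4986 to 5620), and microglia-like cells, the resident macrophages, 4258 (4195 to 4321) and 4700 CPM (4567 to 4836), with overlapping control intervals. Astrocyte-like cells had 3807 (3755 to 3860) and 4549 CPM (4478 to 4621). The secretory cells of the choroid plexus had 3005 (2954 to 3057) and 3613 CPM (3525 to 3704). Over all genes tested, the median log2 ratio of endothelial-like over choroid plexus-like cells was 0.94 in control and 0.69 in EMF_AuNPs. Over the proteasome genes tested it was 0.84 and 0.77.

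**Figure D1:**
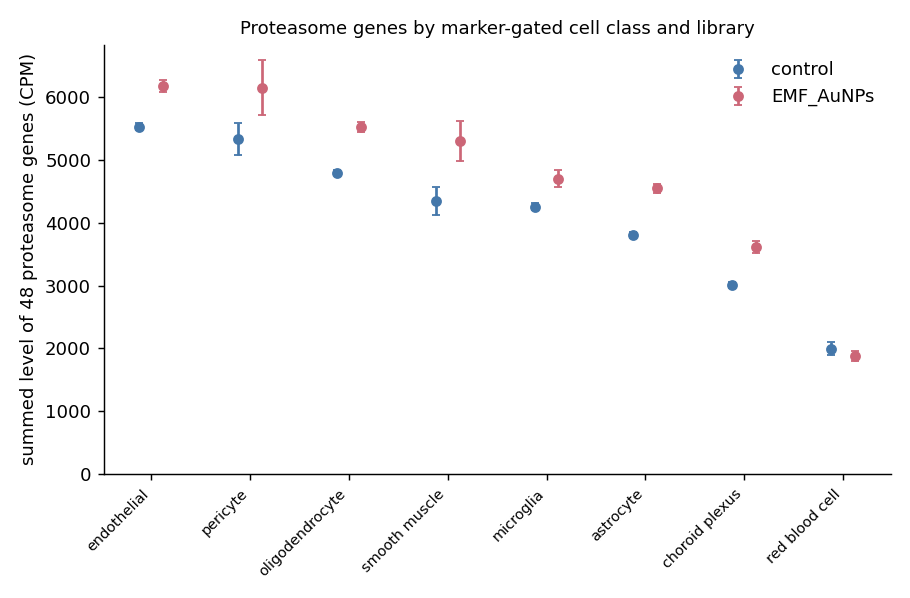
Summed level of the 48 proteasome genes in CPM (vertical axis) in each marker-gated cell class (horizontal axis) and library (colours); points are the class sums and bars are exact Poisson intervals. Endothelial-like cells are at 5531 CPM in control and choroid plexus-like cells at 3005 CPM, and of the 8 classes red blood cell-like cells alone are lower in EMF_AuNPs. Haemoglobin UMIs are counted in the class totals.

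In red blood cell-like droplets, where haemoglobin took 56.2% and 62.3% of the UMIs, the summed control level was 1991 CPM (1889 to 2097) and that of EMF_AuNPs 1875 CPM (1793 to 1959). With haemoglobin UMIs left out of the total it was 4542 and 4978 CPM. These droplets held summed endothelial markers at 3629 and 2118 CPM, astrocyte markers at 1323 and 1779 CPM and oligodendrocyte markers at 1389 and 1487 CPM. RNA of other cells thus enters their values. In classes too small to compare, control levels were 5526 CPM (5215 to 5851) in 74 excitatory neuron-like cells, 5842 (5338 to 6381) in 48 Cajal-Retzius-like cells, 5276 (4972 to 5593) in 71 ependymal-like cells and 5951 (5213 to 6764) in 23 oligodendrocyte precursor-like cells. They were 4172 CPM (3736 to 4645) in 52 border macrophage-like and 4602 CPM (4146 to 5094) in 49 fibroblast-like cells. The neuron-like and glial precursor-like intervals held the endothelial-like value and lay above those of microglia-like and astrocyte-like cells, while the border macrophage-like interval overlapped that of microglia-like cells.

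Among the genes that differed most between the large classes were those of the interferon-inducible form. Psmb10, whose product replaces that of Psmb7 (chr8:105935735-105938444, minus strand), was highest in endothelial-like cells, with 159 CPM in control and 193 CPM in EMF_AuNPs. It was 119 and 133 CPM in microglia-like, 66.3 and 61.9 in astrocyte-like, 29.5 and 29.1 in oligodendrocyte-like and 20.3 and 22.3 CPM in choroid plexus-like cells. Endothelial-like cells were therefore 7.84-fold above choroid plexus-like cells in control and 8.65-fold in EMF_AuNPs. Psme1, which encodes 1 of the paired chains of the activator cap (chr14:55578123-55581529, plus strand), had its highest and lowest levels among the compared classes in endothelial-like (258 and 239 CPM) and oligodendrocyte-like cells (40.3 and 42.2 CPM), 6.41-fold and 5.65-fold apart, with 208 and 187 CPM in microglia-like cells. In the smaller class of border macrophage-like cells it was 338 and 202 CPM, from 27 and 10 UMIs. Psme2, which encodes the other chain and lies beside it (chr14:55587441-55591113, minus strand), was 131 and 168 CPM in endothelial-like, 104 and 108 in microglia-like, 67.1 and 87.0 in choroid plexus-like, 40.1 and 61.1 in oligodendrocyte-like and 36.8 and 47.5 CPM in astrocyte-like cells. In both libraries the endothelial-like and microglia-like values of these 3 genes stood above those of oligodendrocyte-like and astrocyte-like cells.

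**Figure D2:**
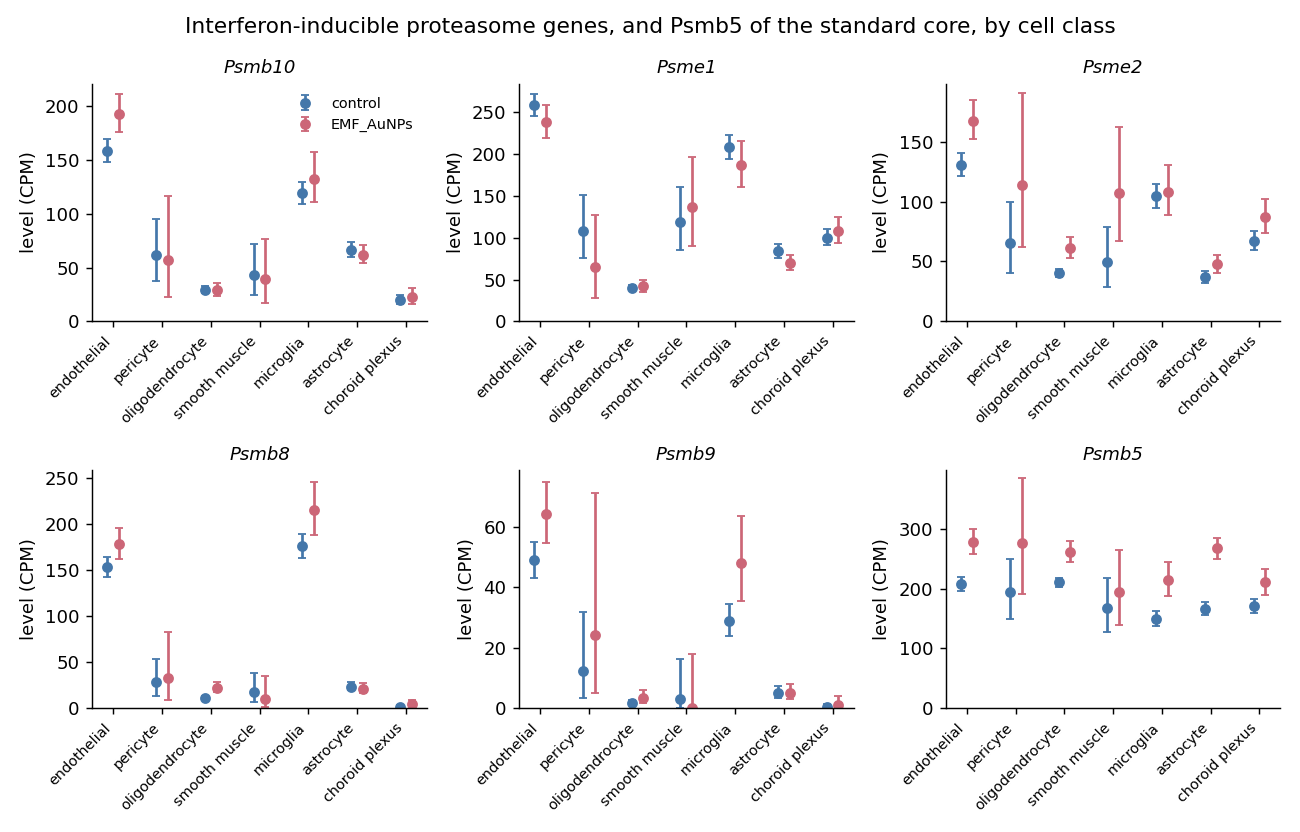
Levels in CPM (vertical axes, from 0) of Psmb10, Psme1, Psme2, Psmb8, Psmb9 and, for comparison, Psmb5 in 7 cell classes (horizontal axes) of both libraries (colours), with exact Poisson intervals as bars. Each of the 5 inducible genes has its highest level in endothelial-like or microglia-like cells, while Psmb5 lies between 149 and 211 CPM in the control classes.

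Psmb8 and Psmb9, the other inducible catalytic genes, are not counted among the 48 and had the same 2 leading classes. Psmb8 was 176 and 216 CPM in microglia-like and 153 and 179 CPM in endothelial-like cells, against 23.3 and 21.2 in astrocyte-like and 10.8 and 22.2 CPM in oligodendrocyte-like cells. Choroid plexus-like cells, the deepest class, had 7 and 8 Psmb8 UMIs, or 1.58 and 4.58 CPM. Psmb9 was 48.8 and 64.2 CPM in endothelial-like and 28.7 and 47.9 CPM in microglia-like cells. The share of Psmb10 in the UMIs of Psmb10 and Psmb7 together was 66.4% (63.8 to 68.9) and 66.9% (63.3 to 70.3) in endothelial-like and 62.8% (59.3 to 66.2) and 62.4% (55.6 to 69.0) in microglia-like cells. It was 48.3% (44.6 to 52.1) and 40% (35.8 to 44.3) in astrocyte-like, 21.4% (19.6 to 23.3) and 18.0% (14.9 to 21.5) in oligodendrocyte-like and 31.4% and 26.7% in choroid plexus-like cells. The share of Psmb8 beside Psmb5 was 54.1% and 50.1% in microglia-like, 42.5% and 39.2% in endothelial-like and 4.89% and 7.82% in oligodendrocyte-like cells, and that of Psmb9 beside Psmb6 was at most 19.2% in the 4 large classes. These shares compare UMIs of different transcripts and are read between classes, not as shares of protein. Pseudogenes of Psmb5, Psmb6 and Psmb7 are annotated, so reads of these genes may be split.

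RNA of other cells was present in every class. All 10 microglia markers had UMIs in oligodendrocyte-like cells, where their summed level was 293 CPM in control and 539 CPM in EMF_AuNPs, against 14871 and 13762 CPM in microglia-like cells. All 12 endothelial markers had UMIs there too, at 290 and 239 CPM against 21669 and 23760 CPM in endothelial-like cells. The part of such RNA in the low levels of Psmb8, Psme2 and Psmb10 in oligodendrocyte-like cells was not tested.

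Few other subunit genes passed 1.5-fold between endothelial-like or microglia-like cells and oligodendrocyte-like cells. Pairs with astrocyte-like cells were not counted, and other subunit genes passed 1.5-fold there. An example is Psma7, with 464 and 403 CPM in endothelial-like and 266 and 218 CPM in astrocyte-like cells. A gene was counted where a class was at least 1.5-fold above another in both libraries, a comparison chosen after the class levels were seen. Of endothelial-like over oligodendrocyte-like cells, 4 of the 42 proteasome genes past the filter on low values were higher (Psma1, Psmb10, Psme1, Psme2) and 0 lower, where 24.7% of all genes tested were higher and 20.1% lower. The median log2 ratio of the 42 was 0.10 in control and 0.03 in EMF_AuNPs, beside 0.05 and 0.09 for all genes. Of microglia-like over oligodendrocyte-like cells, 3 of 41 were higher (Psmb10, Psme1, Psme2; 21.5% of all genes) and 2 lower (the standard catalytic genes Psmb6 and Psmb7; 27.6% of all genes). Of endothelial-like over choroid plexus-like cells, 26 of 39 were higher (52% of all genes) and 0 lower (12.1%), with medians of 0.84 and 0.77 for the proteasome genes and 0.94 and 0.69 for all genes.

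Over the 7 classes without red blood cell-like cells, 18 of the 48 genes differed at least 2-fold between their highest and lowest control class and kept that fold between the same classes in EMF_AuNPs. Of the 41 genes with a mean of at least 20 CPM over these classes, 15 met this (36.6%), against 71% of all genes at that level, and genes with 0 UMIs in the lower class were not counted in either share. Choroid plexus-like cells had the lowest level of 29 of the 41 in control (70.7%, against 53.6% of all genes) and of 28 in EMF_AuNPs (68.3%, against 39.9%). Among the 18, the regulatory subunit gene Psmd11 was 95.5 CPM in endothelial-like and 23.9 CPM in choroid plexus-like control cells, 4.00-fold apart and 2.55-fold in EMF_AuNPs. The alpha subunit gene Psma1 was 96.8 and 28.8 CPM in the same control classes (3.36-fold, and 3.62-fold in EMF_AuNPs), and Psma6 was 165 and 54.0 CPM (3.05-fold and 2.74-fold). Psmd7 (2.27-fold and 2.47-fold) and the ATPase gene Psmc1 (2.80-fold and 2.20-fold) had the same pair of classes. Psmf1, which encodes a protein that binds the core and restrains it in vitro, was 34.0 CPM in pericyte-like and 6.53 CPM in choroid plexus-like control cells. These were 5.22-fold apart, from 11 pericyte-like and 29 choroid plexus-like UMIs. In EMF_AuNPs they were 3.03-fold apart, from 3 and 14 UMIs, and endothelial-like cells had the highest level. The remaining genes with this pattern were Psma2, Psmb3, Psmb6, Psmb7, Psmc6, Psmd3, Psmd5, Psmg3 and Psme2b, beside Psmb10, Psme1 and Psme2. Of these, Psme2b was 35.0 CPM in microglia-like and 1.28 CPM in oligodendrocyte-like control cells (27.3-fold, and 10.7-fold in EMF_AuNPs), and reads that it shares with Psme2 make the split between them uncertain. Psmd5 and Psmg3 rested on few UMIs. Psmd5 had 7 control and 4 EMF_AuNPs UMIs in pericyte-like cells, its highest class. Psmg3 had 3 and 4 UMIs in smooth muscle-like cells, its lowest control class.

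Some genes were hardly present. The thymus gene Psmb11 had 16 UMIs in the whole control library and 1 in EMF_AuNPs, and the testis alpha subunit gene Psma8 had 80 and 47 UMIs (1.57 and 2.40 CPM), with its highest control level, 4.90 CPM, in endothelial-like cells. Psmc3ip had 5.91 and 6.55 CPM over the libraries.

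Between the libraries the summed proteasome level of EMF_AuNPs was above that of control in 7 of the 8 classes, by less than 1.5-fold in each. In the other class, red blood cell-like droplets, it was above control once haemoglobin UMIs were left out of the total. In microglia-like cells the log2 ratio of EMF_AuNPs over control was 0.14 (0.10 to 0.19), in oligodendrocyte-like cells 0.20 (0.18 to 0.23), in astrocyte-like cells 0.26 (0.23 to 0.29) and in endothelial-like cells 0.16 (0.13 to 0.19). It was 0.20 (0.08 to 0.33) in pericyte-like, 0.29 (0.17 to 0.40) in smooth muscle-like and 0.27 (0.22 to 0.31) in choroid plexus-like cells, and -0.09 (-0.19 to 0.01) in red blood cell-like droplets. For single genes 1 CPM was added to both libraries before the ratio was formed. The median log2 ratio over the genes past the filter was 0.13 in microglia-like cells (42 genes), beside -0.02 over all genes tested, 0.26 in oligodendrocyte-like cells (41 genes), beside 0.01, 0.29 in astrocyte-like cells (41 genes), beside 0.18, and 0.21 in endothelial-like cells (43 genes), beside 0.06. In choroid plexus-like cells it was 0.33 over 38 genes, beside 0.32. It was 0.22 over 20 genes in pericyte-like cells, beside -0.03, and 0.30 over 21 genes in smooth muscle-like cells, beside 0.02. In red blood cell-like droplets it was -0.06 over 26 genes, beside -0.28.

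Few of the genes passed 1.5-fold. In microglia-like cells 4 of 42 were higher and 2 lower, where 9.14% of all genes were higher and 12.5% lower. In oligodendrocyte-like cells 5 of 41 (12.2%) were higher, against 7.2% of all genes, and 0 lower, against 7.17%. In astrocyte-like cells 7 of 41 (17.1%) were higher, against 17.6%, and 1 lower, against 7.65%. In endothelial-like cells 2 of 43 (4.65%) were higher, against 9.44%, and 0 lower, against 6.16%. The shares called higher were close to or below the background in the microglia-like, astrocyte-like and endothelial-like cells and are no result about these genes. All classes come from the same 2 libraries and share their depth and free RNA, so the values per class below are set side by side and do not check one another.

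**Figure D3:**
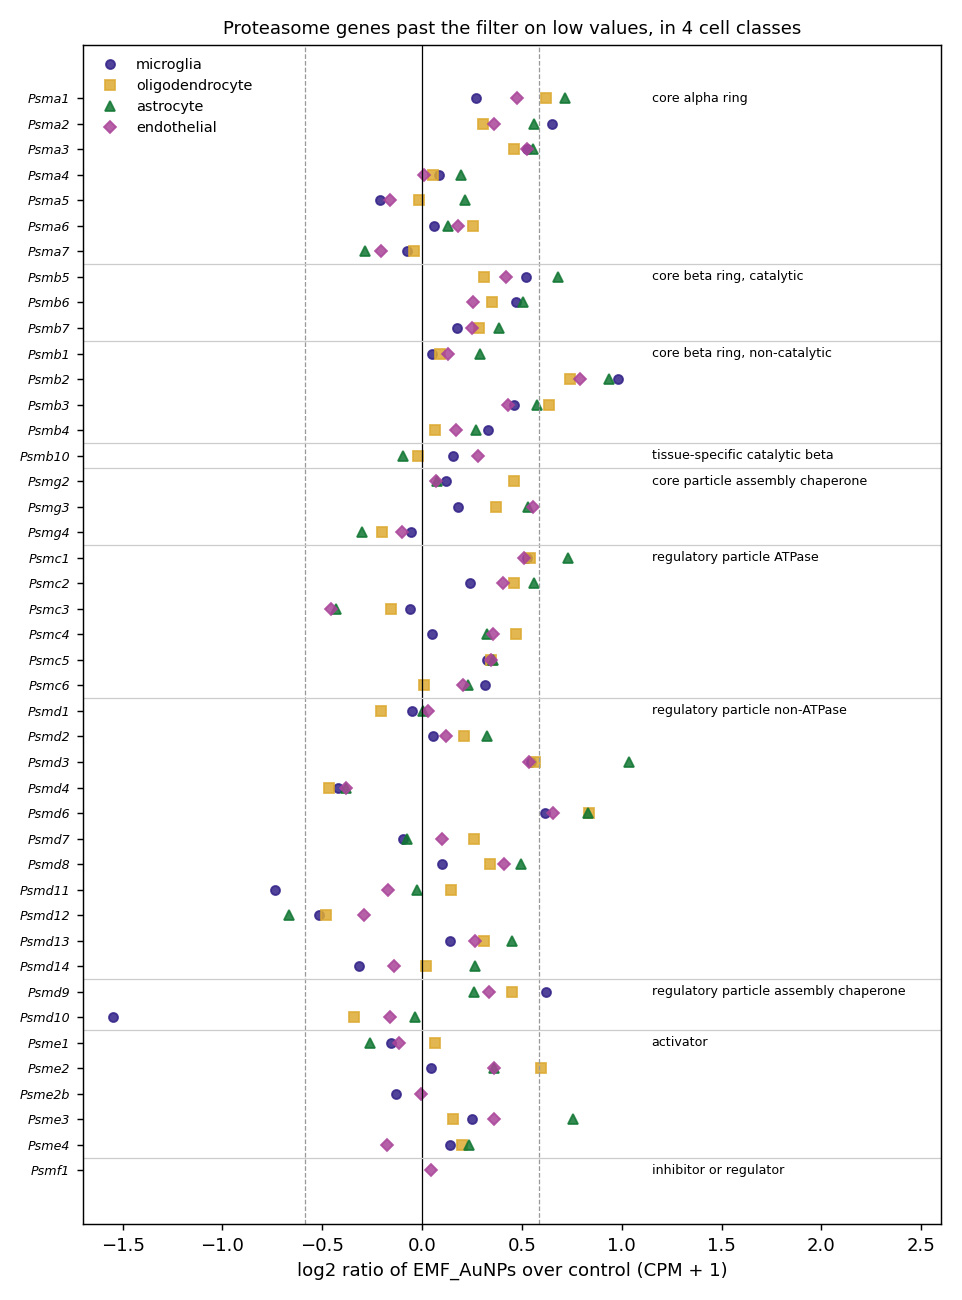
Log2 ratio of EMF_AuNPs over control with 1 CPM added (horizontal axis) for each proteasome gene past the filter on low values (vertical axis, grouped by role) in the 4 large cell classes (symbols); the solid line is at 0 and the dashed lines at 1.5-fold. Psmb2 and Psmd6 are right of the 1.5-fold line in all 4 classes, and Psmd10 of microglia-like cells is farthest to the left at -1.55.

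Of the core particle, Psmb2 stood out among the beta subunit genes. Psmb2 encodes a beta subunit without a proteolytic site (chr4:126677630-126709714, plus strand). It was 88.1 CPM in control and 175 CPM in EMF_AuNPs microglia-like cells, a log2 ratio of 0.98 (0.72 to 1.25). It was 122 and 204 CPM in oligodendrocyte-like (0.74, 0.61 to 0.87), 97.6 and 188 CPM in astrocyte-like (0.94, 0.77 to 1.11) and 112 and 195 CPM in endothelial-like cells (0.79, 0.62 to 0.97). In pericyte-like, smooth muscle-like, choroid plexus-like and red blood cell-like cells its ratios were 0.70, 0.95, 0.80 and 0.81, so it was higher in all 8 classes. The red blood cell-like value includes RNA of other cells. The neighbouring beta genes differed less. Psmb3 had ratios of 0.46, 0.64, 0.58 and 0.43 in microglia-like, oligodendrocyte-like, astrocyte-like and endothelial-like cells, and those of Psmb1 were 0.05, 0.09, 0.29 and 0.13 and of Psmb4 0.33, 0.06, 0.27 and 0.17.

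Psmb5, the gene of the chymotrypsin-like subunit that clinical proteasome inhibitors block, was 149 and 215 CPM in microglia-like (0.52, 0.29 to 0.75), 211 and 261 CPM in oligodendrocyte-like (0.31, 0.20 to 0.42), 166 and 267 CPM in astrocyte-like (0.68, 0.55 to 0.82) and 207 and 277 CPM in endothelial-like cells (0.42, 0.28 to 0.56). It passed 1.5-fold in astrocyte-like cells alone of the 4, with ratios not centred on all genes. The median over all genes tested was 0.18 in astrocyte-like and -0.02 in microglia-like cells, so this call does not set astrocyte-like cells apart. Psmb6, the gene of the caspase-like subunit, had ratios of 0.47, 0.35, 0.51 and 0.26 in the same order, and Psmb7, that of the trypsin-like subunit, 0.18, 0.28, 0.39 and 0.25. The inducible Psmb10 had ratios of 0.16 (-0.13 to 0.44), -0.02 (-0.36 to 0.30), -0.10 (-0.35 to 0.15) and 0.28 (0.12 to 0.44), of which the endothelial-like interval alone lay above 0. Beside it, the ratio of Psmb8 in microglia-like cells was 0.29 (0.06 to 0.51), in astrocyte-like cells -0.13 (-0.58 to 0.30) and in endothelial-like cells 0.22 (0.05 to 0.39). Of the alpha ring, the genes Psma1, Psma2 and Psma3 lay between 0.27 and 0.72 in the 4 classes, while Psma7 lay between -0.29 and -0.04 and Psma5 between -0.21 and 0.21. In astrocyte-like cells Psma1 was 57.6 and 95.2 CPM, and in microglia-like cells Psma2 was 113 and 178 CPM. Among the genes for core assembly, Psmg1, which was under the 20 CPM filter, had 11.0 and 19.5 CPM in oligodendrocyte-like cells (0.77, 0.38 to 1.25), Psmg3 20.7 and 30.9 CPM in endothelial-like cells (0.55, 0.14 to 1.01), and Psmg2 and Psmg4 lay between -0.30 and 0.46.

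The genes of the regulatory particle had ratios on both sides of 0. Psmd6, a lid subunit gene, was 53.0 and 81.8 CPM in microglia-like (0.62, 0.24 to 1.00), 53.3 and 95.8 CPM in oligodendrocyte-like (0.84, 0.65 to 1.04), 41.9 and 75.2 CPM in astrocyte-like (0.83, 0.58 to 1.11) and 57.2 and 90.6 CPM in endothelial-like cells (0.65, 0.41 to 0.92). Psmd3, another lid gene, had ratios of 0.54, 0.56, 1.04 and 0.53, the highest of these from 36.9 and 76.9 CPM in astrocyte-like cells. On the other side, Psmd4, the gene of a receptor for ubiquitin chains (chr3:95032694-95042614, minus strand), was 206 and 154 CPM in microglia-like (-0.42, -0.68 to -0.17), 278 and 201 CPM in oligodendrocyte-like (-0.47, -0.59 to -0.35), 192 and 147 CPM in astrocyte-like (-0.38, -0.54 to -0.23) and 267 and 205 CPM in endothelial-like cells (-0.38, -0.53 to -0.24). Each of these intervals lay below 0 and none of the ratios reached 1.5-fold. The lid gene Psmd12 (chr11:107479484-107504362, plus strand) had ratios of -0.52, -0.48, -0.67 and -0.29, and was called lower in astrocyte-like cells alone, at 84.3 and 52.8 CPM.

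The ATPase gene Psmc3 was 199 and 147 CPM in astrocyte-like (-0.43, -0.59 to -0.28) and 265 and 193 CPM in endothelial-like cells (-0.46, -0.61 to -0.31), and its ratios in microglia-like and oligodendrocyte-like cells were -0.06 and -0.15. The other ATPase genes lay between 0.01 and 0.73, with Psmc1 at 0.52, 0.54, 0.73 and 0.51 in microglia-like, oligodendrocyte-like, astrocyte-like and endothelial-like cells. Psmd14, the gene of the enzyme that removes the ubiquitin chain, had ratios of -0.32, 0.02, 0.27 and -0.14, each with an interval that held 0. In microglia-like cells Psmd11 was 72.2 and 42.9 CPM (-0.74, -1.25 to -0.29) against ratios from -0.17 to 0.14 in the other large classes. The assembly chaperone Psmd10 was 37.0 and 12.0 CPM there (-1.55, -2.61 to -0.78), from 12 EMF_AuNPs UMIs, and -0.34, -0.03 and -0.16 in the other large classes in that order. Another such chaperone gene, Psmd9, had 20.4 and 31.9 CPM in microglia-like cells (0.62, 0.01 to 1.25). Psmd5, which was under the 20 CPM filter in each large class, had ratios from -0.60 to 0.30 with intervals that held 0. Whether a class difference such as that of Psmd11 exceeds chance was not tested.

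The activator genes of the inducible cap had unlike ratios. Psme1 had ratios of -0.16, 0.07, -0.26 and -0.11 in microglia-like, oligodendrocyte-like, astrocyte-like and endothelial-like cells, and Psme2 of 0.05, 0.60, 0.36 and 0.36. Psme2 was called higher in oligodendrocyte-like cells, where Psmb8 was 10.8 and 22.2 CPM and the summed microglia markers 293 and 539 CPM. The part of that RNA in the Psme2 value was not tested. Psme3, the gene of a nuclear activator, was 17.2 and 29.8 CPM in astrocyte-like cells (0.75, 0.36 to 1.21) and 0.25, 0.16 and 0.36 in the other large classes in that order. Psme4, which encodes a large single-chain activator, lay between -0.18 and 0.24. Psmf1 had 11.7 and 17.4 CPM in astrocyte-like cells (0.53, 0.03 to 1.10), where it was under the 20 CPM filter. It had 27.6 and 28.5 CPM in endothelial-like cells (0.04, -0.38 to 0.46).

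Summed by particle, the 15 genes of the alpha ring and standard beta ring were further above control than the 17 genes of the regulatory particle in most classes, a comparison chosen after the ratios were seen. In microglia-like cells the core genes summed to 1907 CPM (1865 to 1950) in the control library and to 2364 CPM (2270 to 2461) in the other, and their log2 ratio was 0.31 (0.24 to 0.38). The regulatory genes summed to 1640 (1601 to 1680) and 1642 CPM (1563 to 1723), a ratio of 0.00 (-0.08 to 0.08). In oligodendrocyte-like cells the ratios of core and regulatory genes were 0.27 and 0.13, in astrocyte-like cells 0.39 and 0.13, and in endothelial-like cells 0.23 and 0.08. The share of core UMIs in the sum of both was 53.8% (52.9 to 54.6) and 59.0% (57.5 to 60.5) in microglia-like cells, a difference of 5.26 percentage points (3.53 to 6.97). In astrocyte-like cells the difference was 4.23 points (3.14 to 5.32), in endothelial-like cells 2.54 (1.505 to 3.58), in oligodendrocyte-like cells 2.38 (1.53 to 3.21), in choroid plexus-like cells 3.97 (2.38 to 5.56) and in smooth muscle-like cells 6.33 (2.19 to 10.4). In pericyte-like cells it was -0.344 (-4.80 to 4.06) and in red blood cell-like droplets 2.48 (-1.11 to 6.08), intervals that held 0. Without Psmb2, the differences in the 4 large classes were 4.57, 3.65, 2.03 and 1.87 points in microglia-like, astrocyte-like, endothelial-like and oligodendrocyte-like cells. Psmd4 and Psmc3 had the highest control levels of the regulatory genes in oligodendrocyte-like (278 and 267 CPM) and endothelial-like cells (267 and 265 CPM). Their ratios were -0.47 and -0.15 in the former and -0.38 and -0.46 in the latter. The differences without these genes were not computed, so they describe sums and not each gene of a particle.

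**Figure D4:**
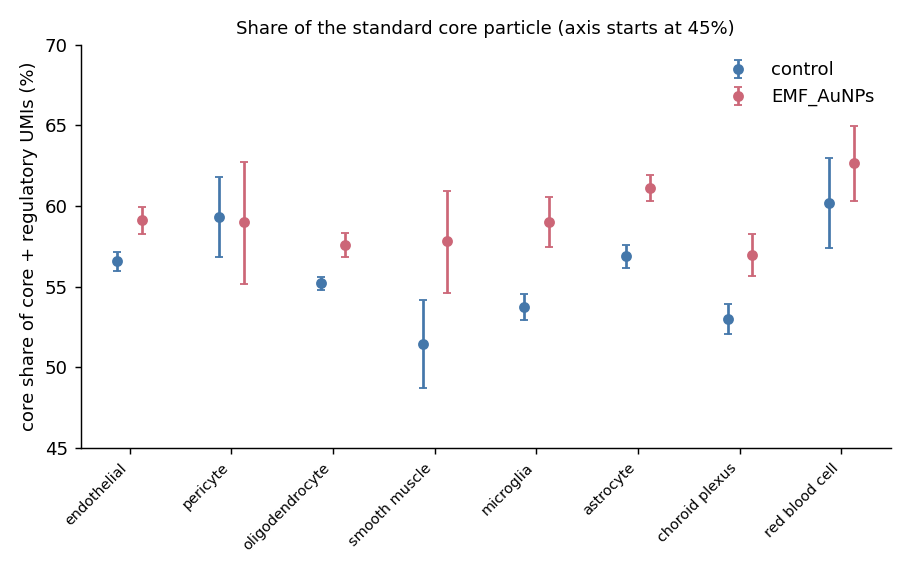
Share of UMIs of the 15 standard core genes in the UMIs of core and regulatory particle genes together (vertical axis, in percent, starting at 45%) by cell class (horizontal axis) and library (colours), with Clopper-Pearson intervals as bars. In microglia-like cells the share is 53.8% in control and 59.0% in EMF_AuNPs, and in pericyte-like cells the intervals overlap.

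Genes that work with the proteasome were followed in 4 lists, whose counts are to be read against the shares of all genes, in microglia-like, oligodendrocyte-like, astrocyte-like and endothelial-like cells, of 9.14%, 7.2%, 17.6% and 9.44% higher and 12.5%, 7.17%, 7.65% and 6.16% lower. The gene of the factor that drives subunit genes, Nfe2l1, was lower in all 8 classes, red blood cell-like droplets with RNA of other cells among them. It was 118 and 57.9 CPM in microglia-like (-1.02, -1.45 to -0.63), 113 and 40.7 CPM in oligodendrocyte-like (-1.45, -1.74 to -1.22), 124 and 55.4 CPM in astrocyte-like (-1.15, -1.40 to -0.92) and 311 and 148 CPM in endothelial-like cells (-1.07, -1.24 to -0.91), and its ratios lay between -1.74 and -0.70 in the smaller classes. In the list of 8 transcription factors 4, 4, 6 and 6 genes passed the filter in microglia-like, oligodendrocyte-like, astrocyte-like and endothelial-like cells. Nfe2l1 was the 1 gene called lower in each of these classes, and 2 were called higher, in astrocyte-like cells (Nrf1 at 0.87 and Nfyc at 0.63). Nfe2l2, the gene of the related factor of oxidative stress, had ratios of -0.29, -0.23, -0.33 and -0.40.

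Of the 9 genes of ubiquitin supply and activation 7 passed the filter in each large class, and 0 were called lower. The conjugating enzyme gene Ube2n had ratios of 1.04, 0.87, 0.85 and 0.83, from 50.4 and 105 CPM in microglia-like cells, and Ube2d3 of 0.69, 0.86, 1.10 and 0.81. Of the 7 genes of ubiquitin-dependent extraction 6, 7, 6 and 7 passed, 2 were called higher, in astrocyte-like cells, and Ubxn4 was called lower in microglia-like and astrocyte-like cells. The membrane protein gene Ubxn4 had ratios of -0.68, -0.48, -0.64 and -0.42 and Faf2 of -0.49, -0.24, -0.56 and -0.22, while in astrocyte-like cells Ufd1l (0.77) and Nsfl1c (0.71) had the largest absolute ratios of the list. Nploc4, also of this list, had the largest in endothelial-like cells at 0.43. Of the 15 proteasome partners 11, 11, 11 and 12 passed, and 1 was called higher, the shuttle gene Ubqln2 in astrocyte-like cells (0.75), where 17.6% of all genes were higher, and 0 lower. Among the others of this list, Akirin2 (-0.35) and Ubqln1 (-0.33) were below control in microglia-like cells, Txnl1 had a ratio of 0.40 in oligodendrocyte-like and Ubqln1 of 0.32 in endothelial-like cells.

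**Figure D5:**
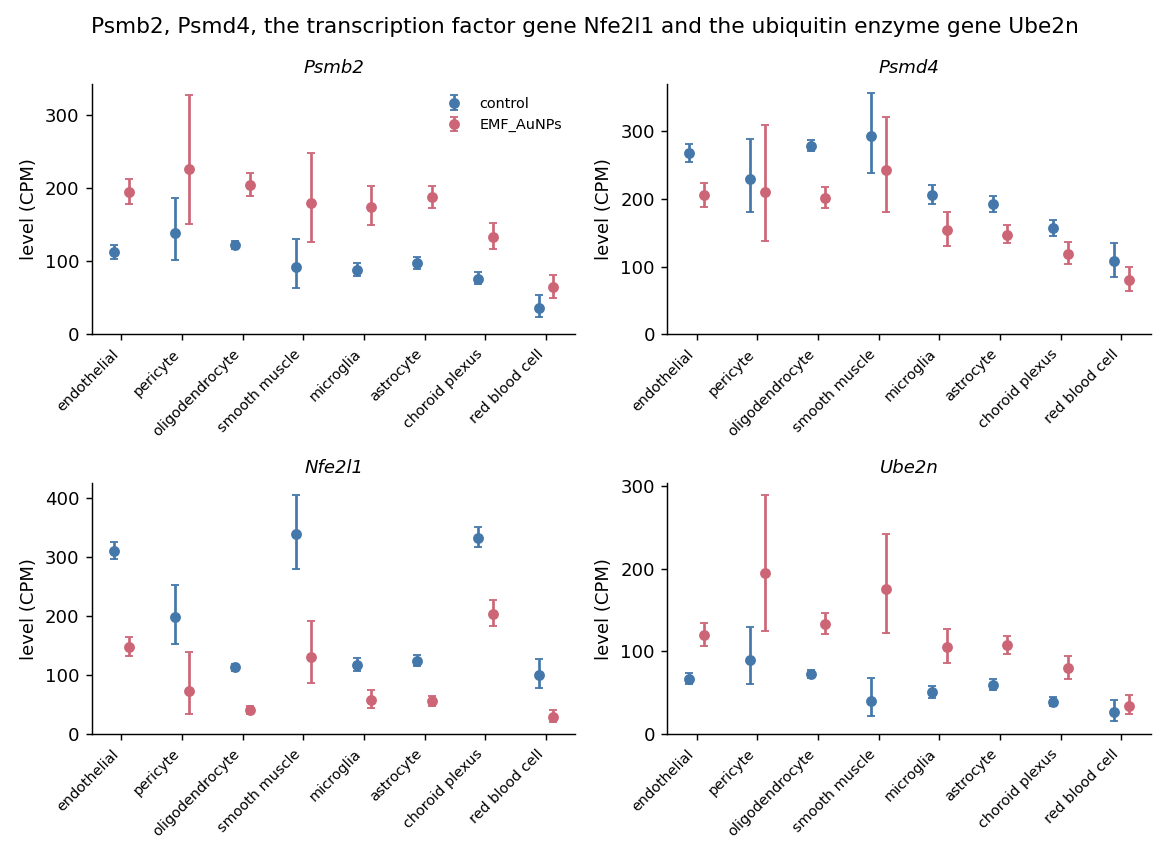
Levels in CPM (vertical axes, from 0) of Psmb2, Psmd4, Nfe2l1 and Ube2n in 8 cell classes (horizontal axes) of both libraries (colours), with exact Poisson intervals as bars. Psmb2 and Ube2n are above control and Psmd4 and Nfe2l1 below it in each class, with overlapping intervals in some of the smaller classes.

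Several properties of the libraries moved with the comparison. Median depths of the named cells were 1532 and 1989 UMIs in microglia-like, 2291 and 3300 in oligodendrocyte-like, 1398 and 2242 in astrocyte-like and 1609 and 2280 in endothelial-like cells. Haemoglobin took 0.177% and 0.841% of the UMIs of microglia-like, 0.186% and 0.905% of oligodendrocyte-like, 0.215% and 0.619% of astrocyte-like and 0.504% and 1.32% of endothelial-like cells. All 11 oligodendrocyte markers had UMIs in the other large classes, and their summed level was 656 and 1383 CPM in microglia-like, 572 and 1027 CPM in astrocyte-like and 922 and 1597 CPM in endothelial-like cells. In choroid plexus-like cells that level was 191 and 197 CPM. There haemoglobin took 0.0607% and 0.225% of the UMIs, and the summed astrocyte markers were 364 and 526 CPM. The part of free RNA in the other class values was not tested.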

How the data were processed

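The deposited matrices hold whole-number UMI counts per gene and barcode, not normalised, which the authors made with Cell Ranger 3.0.2. The submitters' processing notes also name STAR and the build mm10. Neither the annotation nor a version of STAR was found there. The 2 groups come from the treatment labels. Raw counts were used. Cells with at least 500 UMIs and 250 genes took the class with the most detected markers, which had to number at least 3 and at least 2 times those of any other class; 159 of 162 markers were found, and droplets with at least 30% haemoglobin UMIs were red blood cell-like. Cells of mixed markers were left out and no doublet caller was run, so doublets of like cells remain. The gate left 22.5% and 32.0% of cells as mixed, and 3.62% and 2.27% had too few markers. Mitochondrial genes numbered 0 in the matrices, so RNA quality by that measure was not used.

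UMIs were summed per class and library and divided by the class total (CPM), for every class that reached 50 cells in both libraries. Genes entered the library comparison with at least 50 UMIs over both libraries and a mean of at least 20 CPM, and 1 CPM was added before log2. CPM intervals are exact Poisson, shares Clopper-Pearson, differences of shares Newcombe, and ratio intervals exact conditional binomial without the added CPM. With 1 library per group no p-value was computed. Named were, per large class, the 3 highest and 3 lowest ratios among genes with at least 100 UMIs, a fixed set by role (the catalytic, inducible, activator, chaperone, Psmd4, Psmd14 and Psmf1 genes), the 2 largest absolute ratios of each partner list and genes at least 2-fold between classes in both libraries; genes beside these were named after their values were seen, and some genes under this rule are not reported here. The genes and lists were chosen with earlier results of these data known. Scaling was not centred. The comparison was checked on counts simulated at the totals of microglia-like cells with counting error only. Variation between libraries or animals, free RNA and the marker gate were not part of that check. Scripts ran in Python 3.11.15 with numpy 2.4.6, scipy 1.17.1 and pandas 2.3.3. Gene positions are those of GENCODE on GRCm38, which is mm10.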

Additional observations from a re-analysis of the deposited data

How the results depend on the processing

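No paired analysis was possible because there was 1 library per group. The medians of the proteasome genes and the differences in core share were recomputed without haemoglobin UMIs, at other depths, weights, filters, pseudocounts and marker gates where each applies, and 38 of 40 medians kept their size within the interval of the median. Centred on all genes, the astrocyte-like median was 0.10 and 3 genes were higher and 2 lower. With at most 1 marker of a second class, which left 18 EMF_AuNPs endothelial-like and 32 microglia-like cells, the endothelial-like median was -0.025 and its core share difference 4.86 points, Psmd11 of microglia-like cells was 0.17, and the counts higher and lower were 8 and 9 in microglia-like, 13 and 2 in astrocyte-like and 9 and 7 in endothelial-like cells, with 10 higher in oligodendrocyte-like cells. With 10 CPM added 2, 3 and 1 genes were higher in microglia-like, oligodendrocyte-like and endothelial-like cells. At 2-fold, 0 were higher in microglia-like, oligodendrocyte-like and endothelial-like cells and 1 in astrocyte-like cells, with 1 lower in microglia-like and 0 in astrocyte-like cells. With cells thinned to 1000 UMIs 3, 12 and 1 were higher in oligodendrocyte-like, astrocyte-like and endothelial-like cells and 2 lower in endothelial-like cells, and with equal weight per cell 11 were higher in astrocyte-like and 4 in endothelial-like cells. With mixed cells kept in their leading class, an alternative chosen after seeing the data, 2 were higher and 1 lower in microglia-like cells. The causes were not tested. In EMF_AuNPs, pericyte-like cells were above endothelial-like cells with at least 1000 UMIs per cell, with thinning and with at most 1 marker of a second class, and in the last of these smooth muscle-like cells lay below astrocyte-like cells.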
